A study of Homo sapiens with 3 samples.

Results

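The extended major histocompatibility complex (MHC) was examined for binding of the PRCC-TFE3 fusion protein, as every deposited ChIP peak that lay on chromosome 6 from 28477797 to 33448354. The members were taken by position, and the rule used no measured value, although the region itself was picked with earlier results of these data known. In the narrowPeak lists the region held 481 of 109205 peaks in replicate 1 and 403 of 81300 peaks in replicate 2. In the BED lists it held 373 of 84248 peaks in replicate 1 and 302 of 63535 peaks in replicate 2. The input DNA list held 286 peaks, of which 3 lay on chromosome 6 and 0 in the region. The region was split into a stretch below class I (28477797 to 29600000), class I (29600000 to 31500000), class III (31500000 to 32200000) and class II (32200000 to 33448354). No ChIP peak straddled one of these boundaries. Positions are in hg19, the build that the submitters' processing notes name.

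The data came from HK-2, an established human cell line from the proximal tubule of the kidney, engineered to express HA-tagged PRCC-TFE3 when doxycycline is added. All cells, input DNA included, were given 0.2 µg/mL doxycycline for 24 h, and chromatin was cross-linked, cut with micrococcal nuclease and pulled down with an antibody to HA. There were 2 ChIP samples of the same group, with 12235754 tags in replicate 1 and 7418533 tags in replicate 2 as recovered from the deposited lists, and 1 input DNA sample. Cells without doxycycline and a pull-down without HA were not analysed here. Background was therefore given by input DNA alone, and binding of endogenous TFE3 was not measured. The tagged protein was expressed from an inducible transgene and not from a rearranged locus, and whether the cells were 1 clone is not given in the sources used here.

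TFE3 belongs to the MiT/TFE family of basic helix-loop-helix leucine zipper factors, which bind E-box and related sequences and are known for the control of lysosomal and autophagy genes. PRCC-TFE3 keeps the DNA-binding part of TFE3 and is found in renal cell carcinomas with a TFE3 rearrangement. Class I of the MHC is known for genes of peptide presentation to CD8+ T cells. Class II is known for the HLA-DR, HLA-DQ and HLA-DP chains, which present peptides to CD4+ T cells, and for the peptide transporter genes TAP1 and TAP2. Class III is gene-dense and carries complement genes, TNF, heat shock genes and NEU1, a lysosomal sialidase, whereas the stretch below class I carries many olfactory receptor genes. These genes are background to the stretches, and no peak was assigned to any of them, because an annotation of the same build was not used here.

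To determine whether peaks were denser in the MHC than elsewhere on the chromosome, peaks per Mb were compared with the rest of chromosome 6, taken as the span from its first to its last peak without the region. In replicate 1 the region held 96.8 narrowPeak peaks per Mb (95% exact Poisson interval 88.3 to 106), compared with 38.3 in the rest, a ratio of 2.53 (95% interval 2.30 to 2.77). In replicate 2 it held 81.1 per Mb (73.4 to 89.4), compared with 27.9, a ratio of 2.91 (2.62 to 3.22). Thus 2.91% of the span of chromosome 6 carried 7.04% of its peaks in replicate 1 and 8.01% in replicate 2. The BED lists gave ratios of 2.49 and 2.78. These intervals cover counting error only. Neighbouring peaks are not independent and the samples are 2 ChIPs of 1 group, so no p-value was computed.

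The density differed between the MHC classes. Class III was the densest stretch, with 141 peaks per Mb in replicate 1 and 119 in replicate 2, which were 3.69 (2.998 to 4.50) and 4.25 (3.38 to 5.28) times the rest of the chromosome. Class I followed with 114 and 94.7 peaks per Mb, or 2.97 and 3.396 times the rest. Class II had 76.9 and 68.1 peaks per Mb, or 2.01 and 2.44 times the rest. The stretch below class I was the sparsest, with 62.4 and 49.0 peaks per Mb, or 1.63 (1.27 to 2.06) and 1.76 (1.32 to 2.29) times the rest.

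Not every step of that order was larger than the counting error. The ratio of class III to class I was 1.24 (0.971 to 1.59) in replicate 1 and 1.25 (0.953 to 1.63) in replicate 2, so these neighbours were not separated. The density of class I was 1.48 times (1.16 to 1.90) and 1.39 times (1.07 to 1.82) that of class II, and these intervals excluded 1. The ratio of class II to the stretch below class I was 1.23 (0.897 to 1.70) and 1.39 (0.978 to 1.99), and both intervals included 1.

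**Figure D1:**
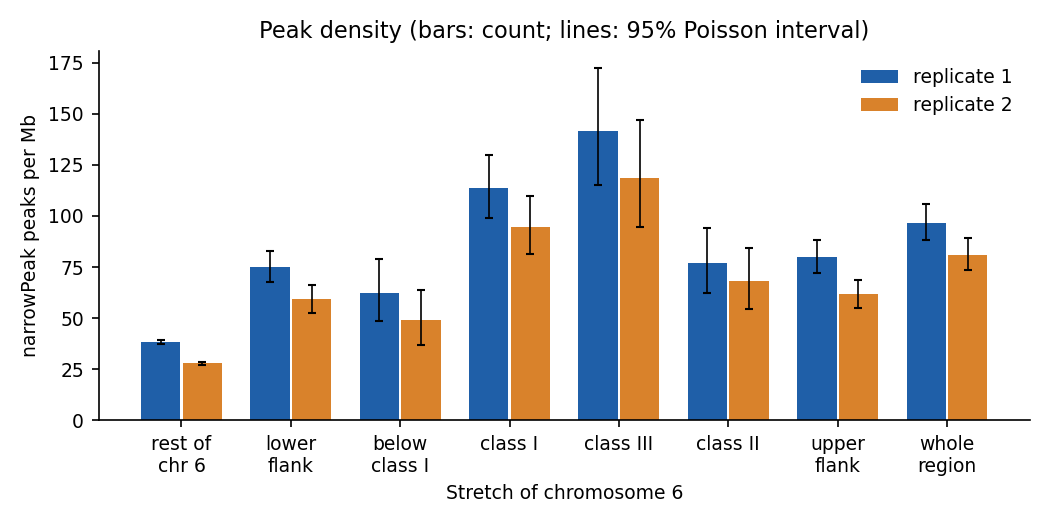
Number of narrowPeak peaks per Mb in each stretch of chromosome 6, with 1 bar per ChIP replicate from an axis that starts at 0 and lines for the 95% exact Poisson interval of the count. Class III stands highest in both replicates, at 141 and 119 peaks per Mb, and both flanks of the region lie above the rest of the chromosome.

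The stretches next to the MHC were themselves dense in peaks. The flank below the region (23507239 to 28477796) held 75.04 peaks per Mb in replicate 1 and 59.1 in replicate 2, and the flank above it (33448355 to 38418912) held 79.9 and 61.6. Each flank is as long as the region, and both also count within the rest of the chromosome. Against both flanks together, the region's ratio was 1.25 (1.11 to 1.40) in replicate 1 and 1.34 (1.18 to 1.53) in replicate 2. Class I, at 1.47 (1.26 to 1.71) and 1.57 (1.32 to 1.86), and class III, at 1.83 (1.47 to 2.25) and 1.96 (1.54 to 2.47), exceeded the flanks in both replicates. For class II the ratios to the flanks were 0.993 (0.795 to 1.23) and 1.13 (0.888 to 1.42), and for the stretch below class I they were 0.805 (0.621 to 1.03) and 0.812 (0.605 to 1.07), and these 4 intervals included 1.

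When chromosome 6 was tiled into 33 windows of the region's length, the MHC window ranked 1 in each of the 4 ChIP lists. The next 2 windows in every list were its direct neighbours, with 397 and 373 narrowPeak peaks in replicate 1 and 306 and 294 in replicate 2. The median window held 181 peaks in replicate 1 and 131 in replicate 2.

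The peaks were then followed along the region in 50 windows of 100 kb. The last window, from 33377797 to 33448354, was cut short by the region's end but counted like the others. Overlapping peaks of the replicates (1 bp or more) were merged, and a merged region with a peak of each replicate is called shared. The region held 517 merged regions, of which 350 were shared, 126 had a peak of replicate 1 alone and 41 had a peak of replicate 2 alone. Shared regions made up 67.7% (95% Wilson interval 63.6 to 71.6), compared with 59.8% over all chromosomes and 59.1% in the rest of chromosome 6. In both flanks together the share was 65.5% (62.2 to 68.7), which overlapped that of the region. The density of shared regions was 70.4 per Mb, 2.90 (2.59 to 3.23) times that of the rest, and 53.8 per Mb in the flanks. The 10 fullest windows held 140 of the 350 shared regions, or 40%.

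**Figure D2:**
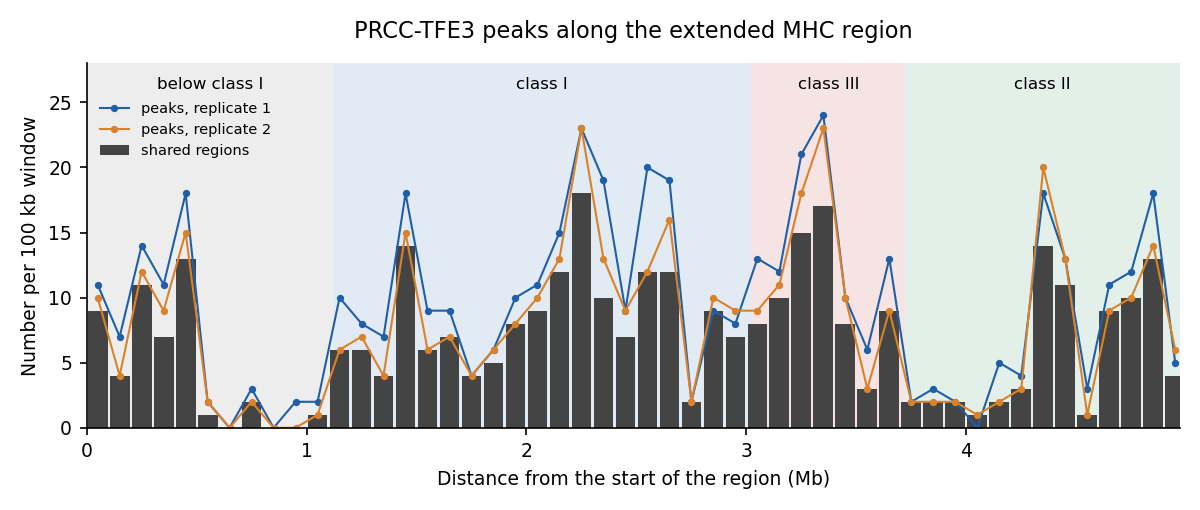
Number of narrowPeak peaks of each replicate (lines) and of shared regions (bars) in 100 kb windows, against the distance from the start of the region in Mb, with the 4 stretches shaded. The fullest window holds 18 shared regions and lies in class I, and runs of low windows lie in the later part of the stretch below class I and at the start of class II.

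Each stretch had its own crowded and empty parts. In class I the fullest window (30677797 to 30777796) held 18 shared regions, with 23 peaks in each replicate. In class III the fullest window (31777797 to 31877796) held 17 shared regions, with 24 peaks in replicate 1 and 23 in replicate 2. In class II it was the window from 32777797 to 32877796, with 14 shared regions. In the stretch below class I it was the window from 28877797 to 28977796, with 13 shared regions.

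Low windows were fewer in the MHC than in the rest of chromosome 6 as a whole. Only 3 of the 50 windows, or 6.0%, held no shared region, all of them below class I, compared with 31.9% of 1658 windows in the rest of the chromosome. The median window held 7 shared regions in the MHC and 1 in the rest, although the fullest window of the rest held 19. The median distance between neighbouring shared regions was 6.20 kb in the MHC and 14.5 kb in the rest, and 44.99% and 27.97% of the distances were under 5 kb. The rest includes a peak-free gap of 3.47 Mb. Windows and distances were not compared with the flanks, so these contrasts may not be particular to the MHC.

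The longest stretch without a peak of either replicate ran from 28985214 to 29219500, 234 kb in the part below class I. In class II the longest ran from 32400075 to 32577599, 178 kb. Peak-free stretches over 50 kb covered 46.6% of the part below class I and 33.4% of class II, compared with 10.7% of class I and 14.6% of class III. In class I the longest peak-free stretch was 84.8 kb, from 31240154 to 31324922, and in class III it was 101.9 kb, from 31941065 to 32042922. The lists named no peak on an alternative MHC haplotype or on any sequence beyond the standard chromosomes. How well reads could be mapped within the peak-free stretches was not examined. A stretch without a peak is therefore not a measure of absent binding.

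The next question was whether the peaks in the MHC were stronger as well as denser. Fold enrichment is the ratio of ChIP to background at the peak summit as the authors' peak caller gave it. Its median in the region was 8.14 in replicate 1 (quartiles 5.70 and 13.9) and 8.25 in replicate 2 (5.78 and 12.8). In the rest of chromosome 6 it was 7.49 (5.35 and 11.4) and 7.21 (5.41 and 10.8). The medians thus differed by a factor of 1.09 in replicate 1 and 1.14 in replicate 2, while the quartiles overlapped widely.

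The upper tail was also compared. The 90th percentile was 20.6 in the region and 17.1 in the rest in replicate 1, and 18.5 and 15.9 in replicate 2. The highest fold enrichment was lower in the region, at 38.5 against 42.3 in replicate 1 and 39.8 against 43.9 in replicate 2. Shares of strong peaks, given next, are not on the scale of a ratio of medians. Of the region's peaks, 73 of 481 in replicate 1, or 15.2% (12.2 to 18.7), were in the strongest 10% of that replicate's whole list by fold enrichment, and 57 of 403 in replicate 2, or 14.1% (11.1 to 17.9), were in the strongest 10% of its list. In the rest of chromosome 6 the shares were 8.87% and 8.88%. The differences of 6.30 percentage points (95% Newcombe interval 3.28 to 9.85) and 5.27 points (2.09 to 9.09) exceeded the counting error. By class, the shares in replicate 1 and replicate 2 were 18.2% and 19.3% in class III, 19.8% and 18.8% in class II, and 14.4% and 12.8% in class I. In the stretch below class I they were 7.14% and 3.64%, or 5 of 70 and 2 of 55 peaks, and their difference from the rest was within the counting error. For class I in replicate 2, the interval of the difference from the rest also included 0.

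The strongest shared regions of the MHC were among the strongest of the whole chromosome. When the 4381 shared regions of chromosome 6 were ranked by the lower of their 2 fold enrichments, 4 of the first 10 and 21 of the first 100 lay in the MHC, which holds 7.99% of all of them. In class III, the region from 31794651 to 31795830 ranked 2, with a fold enrichment of 38.4 in replicate 1 and 39.0 in replicate 2. Its BED peaks had 83 and 61 ChIP tags and 0 input tags. The regions from 32163245 to 32163978 and from 31830337 to 31831051 ranked 3 and 4. The former had fold enrichments of 38.0 and 39.8 with 78 and 64 tags, and the latter 38.5 and 37.9 with 77 and 62 tags. All 3 class III regions had similar fold enrichments in both replicates, which a ranking by the lower value favours. They had no input tag, which also held for 40.5% of class III BED peaks in replicate 1 and 41.5% in replicate 2.

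In class II, the region from 33358697 to 33359731 ranked 6 on the chromosome. Its fold enrichment was 35.8 in replicate 1 and 39.1 in replicate 2, with 73 and 60 tags and 0 input tags. With 1035 bp it was also the widest shared region of class II. The region from 32939242 to 32940088 ranked 19, with fold enrichments of 32.6 and 31.0, 73 and 57 tags, and 1 input tag. The region from 33216870 to 33217448 ranked 37, at 28.9 and 27.6, and had 55 and 42 tags and 0 input tags.

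In class I, the strongest shared region lay from 30719939 to 30720666 and ranked 13. Its fold enrichment was 37.4 in replicate 1 and 32.7 in replicate 2, with 75 and 51 tags, and 1 input tag. It lay in the fullest 100 kb window, together with the region from 30684845 to 30685664, which ranked 32 with fold enrichments of 32.1 and 28.04, 64 and 48 tags, and 0 input tags. Between them in rank was the region from 30034508 to 30035101, at fold enrichments of 35.9 and 31.7, where 73 and 50 ChIP tags and 2 input tags were counted.

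The leading regions below class I were weaker. The strongest, from 28533886 to 28534366, ranked 120, with fold enrichments of 28.9 and 22.3, 55 and 39 tags, and 2 input tags. The region from 29219501 to 29219965, which bounded the 234 kb peak-free stretch, ranked 280, with fold enrichments of 20.8 and 18.2, 39 and 28 tags, and 1 input tag. The region from 28557000 to 28557594 ranked 546, with fold enrichments of 19.8 and 14.8, 35 and 24 tags, and 0 input tags.

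Width and strength did not go together at every site. The widest shared region of the MHC, 1402 bp in class III from 31708109 to 31709510, had fold enrichments of only 4.41 and 8.53, held no BED peak in either replicate and ranked 4101. The widest in the stretch below class I, 1368 bp from 28949256 to 28950623, had 10.2 and 8.53, and the widest in class I, 1223 bp from 30709972 to 30711194, had 16.4 and 9.04. Over the 350 shared regions the width ran from 209 to 1402 bp and the lower fold enrichment from 3.22 to 38.4, with a median of 8.34.

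**Figure D3:**
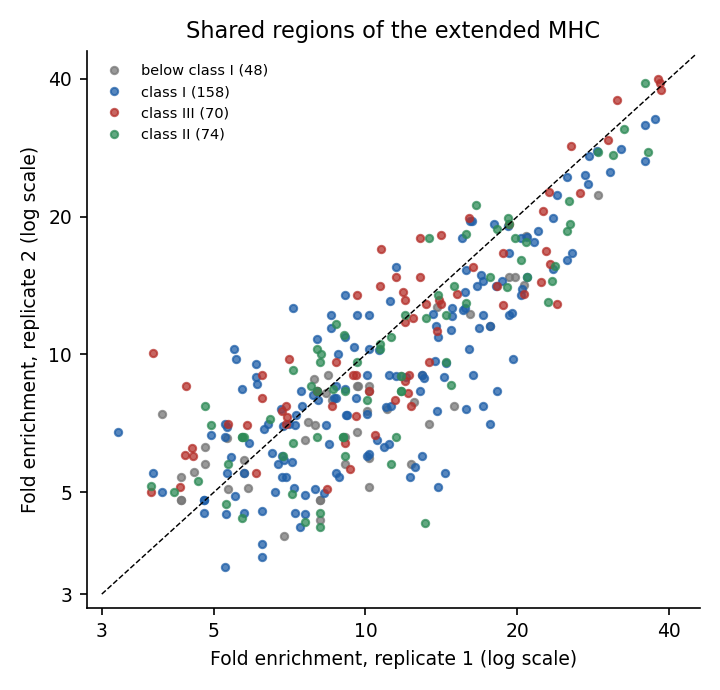
Fold enrichment of the 350 shared regions in replicate 1 (x axis) and replicate 2 (y axis), both on a log scale, with 1 point per region coloured by stretch and a dashed line where both are equal. Points scatter widely at low fold enrichment. The 3 strongest class III regions, picked by the lower of their values and between 37.9 and 39.8 in both replicates, lie close to the line.

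In matched BED peaks with at least 50 tags, the tags of the replicates differed by less than counting noise, with a chi-square per degree of freedom of 0.708 in the MHC and 0.942 over all chromosomes. How independent the ChIPs were is not given beyond the study's word for them, and the shared regions, recovery and rank correlations rest on their being separate samples. Spearman's rho of the fold enrichments over the 350 shared regions was 0.802, compared with 0.767 over those of the rest of the chromosome. It was 0.848 in class III, 0.852 in class II, 0.778 in class I and 0.726 below class I. These coefficients describe sites within the same 2 libraries, and sites are not replicates, so no p-value was computed. The summits of overlapping peaks lay a median of 30 bp apart, compared with 31 bp in the rest.

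Tags per peak were examined in the BED lists. In replicate 1 a peak of the region had a median of 20 tags (quartiles 14 and 32, highest 83), compared with 17 (12 and 26, highest 83) in the rest of chromosome 6. In replicate 2 the medians were 15 (11 and 23, highest 64) and 13 (9 and 19, highest 62). The ratios of the medians were 1.18 and 1.15, and the quartiles overlapped in both replicates. Class III had the highest medians, 22.5 tags in replicate 1 and 20 in replicate 2, and the stretch below class I the lowest, 18 and 12.5. Class I had 21 and 15, and class II 20 and 16.5.

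The direction of this difference depended on the measure. The fold over the local background, which the BED lists give for each peak, had a median of 11.6 in the region and 12.6 in the rest in replicate 1, and 13.2 and 14.8 in replicate 2. It was thus lower in the MHC, at 0.925 and 0.893 times the rest. In both flanks together it was 0.917 and 0.906 times the rest, so a lower local fold was not particular to the MHC. In class III, the densest stretch, the local fold was 0.731 and 0.893 times the rest, whereas in class II it was 1.10 and 1.06 times. The part that the density of peaks has in this measure was not tested.

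**Figure D4:**
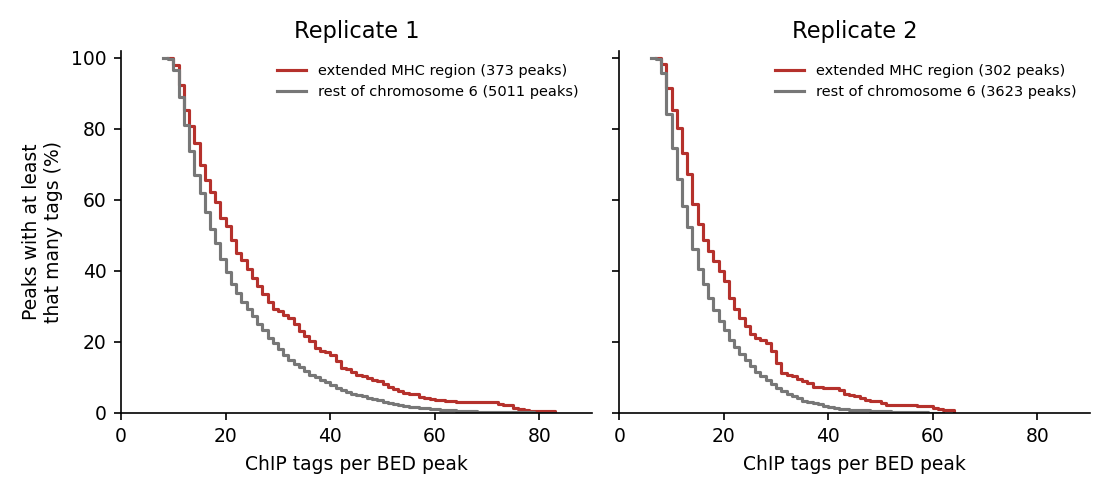
Share of BED peaks, in percent, with at least the number of ChIP tags on the x axis, for the extended MHC region and the rest of chromosome 6 in each replicate. The curve of the region lies to the right of that of the rest, with medians of 20 against 17 tags in replicate 1 and 15 against 13 in replicate 2.

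Input DNA gave the background at the same places. Peaks of the region had a mean of 0.957 input tags (0.860 to 1.06) in the list of replicate 1 and 0.934 (0.828 to 1.05) in that of replicate 2, compared with 0.875 and 0.871 in the rest. The ratios of 1.09 (0.979 to 1.22) and 1.07 (0.945 to 1.21) did not exceed the counting error. No input tag was found in 44.2% and 43.7% of the region's peaks, compared with 45.4% and 46.1% in the rest of chromosome 6 and 46.1% and 46.9% over all chromosomes. The highest number in a peak was 7. The stretch below class I was the exception, with 1.15 and 1.25 input tags per peak, 1.31 (1.004 to 1.69) and 1.43 (1.06 to 1.90) times the rest. These values are not independent, because both lists share the same input library. In this stretch 33 of the 40 replicate 2 peaks also overlapped a replicate 1 peak. It was also the stretch with the fewest ChIP tags per peak, and the part of input in its peaks was not tested.

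Finally, replicate recovery was determined, as the share of each replicate's peaks that overlapped 1 of the other. In replicate 1, 355 of 481 peaks, or 73.8% (69.7 to 77.5), were found in replicate 2, compared with 65.3% of the whole list and 64.2% of the rest of chromosome 6. The difference from the rest of 9.57 percentage points (5.30 to 13.5) exceeded the counting error. It was 5.90 points when the rest was weighted to the region's make-up by fold enrichment. In replicate 2, 362 of 403 peaks, or 89.8% (86.5 to 92.4), were found in replicate 1, compared with 88.5% of the whole list and 88.9% of the rest. Here the difference of 0.904 points (-2.55 to 3.65) did not exceed it. In the BED lists 272 of 373 peaks of replicate 1 were recovered, or 72.9%, compared with 66.1% of the whole list. Those of replicate 2 were recovered in 272 of 302 cases, or 90.1%, compared with 87.6% of the whole list.

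Compared with the flanks alone in the narrowPeak lists, the gain in replicate 1 was no longer larger than the counting error. There 70.0% of replicate 1 peaks were recovered, and the difference was 3.80 points (-1.36 to 8.80). In replicate 2 the flanks recovered 91.5%, and the difference was -1.67 points (-5.55 to 1.93). The BED lists gave higher recovery in the region than in the flanks in both replicates. For replicate 1 peaks it was 72.9% (68.2 to 77.2) in the region and 66.4% (62.6 to 70.1) in the flanks. For replicate 2 peaks it was 90.1% (86.2 to 93.0) and 86.4% (83.0 to 89.2). Intervals for these BED differences were not computed.

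Recovery was then compared between the classes. In the narrowPeak lists, that of replicate 1 peaks was 71.4% below class I, 73.6% in class I, 71.7% in class III and 78.1% in class II, and all 4 Wilson intervals overlapped. For replicate 2 it was 90.9%, 91.1%, 86.7% and 89.4% in the same order. The BED lists gave another order. For replicate 1 recovery was 61.1% (47.8 to 73.0) below class I, 72.8% in class I, 78.4% (67.7 to 86.2) in class III and 76.3% in class II, compared with 63.8% in the rest of chromosome 6. For replicate 2 it was 82.5%, 91.1%, 89.2% and 93.5% in the same order. The intervals of the 4 stretches overlapped in these lists too. Overlap of intervals does not show that shares are equal, and intervals for differences between the classes were not computed. Whether any order of the classes in recovery exceeded the counting error was therefore not tested.

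**Figure D5:**
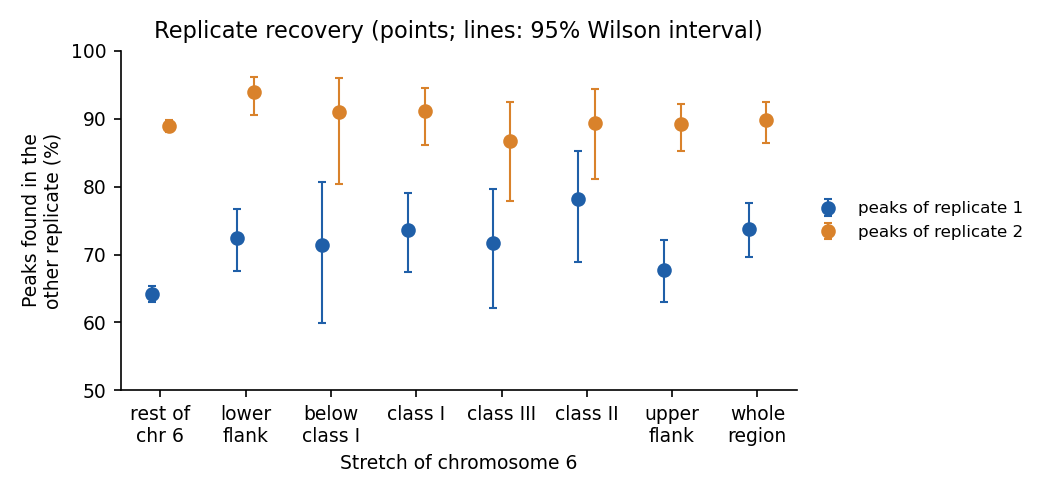
Share of narrowPeak peaks of each replicate, in percent, that overlap a peak of the other replicate, by stretch of chromosome 6, with 95% Wilson intervals and an axis that starts at 50%. Replicate 1 points of the region lie above the rest of the chromosome at 64.2%, and the intervals of the 4 stretches overlap in both replicates.

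Recovery depended on the strength of the peak. In the MHC the recovered peaks of replicate 1 had a median fold enrichment of 10.4 and the 126 others 5.31, and in replicate 2 the values were 8.53 and 4.77 for the 41 others. Of the peaks in the strongest 20% of each whole list, 127 of 127 in replicate 1 and 107 of 107 in replicate 2 were recovered, compared with 99.7% and 100% in the rest of chromosome 6. In the weakest 20% of the list of replicate 1, 32.1% of the region's 81 peaks were recovered (22.9 to 42.9), compared with 22.7% (20.4 to 25.2) in the rest. In the weakest 20% of replicate 2 the shares were 60.3% (48.4 to 71.1) of 68 peaks and 64.0% (60.7 to 67.2), and the intervals overlapped in both replicates. Between these ends of the list, 74.0% (68.5 to 78.8) of the region's 273 replicate 1 peaks were recovered, compared with 66.2% (64.7 to 67.7) in the rest, and these intervals did not overlap. For replicate 2 the shares there were 93.9% (89.96 to 96.3) of 228 peaks and 92.7% (91.7 to 93.6).

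The tags of BED peaks found in both replicates were compared as a share, because replicate 2 was sequenced less deeply and contributed 37.7% of all ChIP tags. In the 272 matched pairs of the region, replicate 1 had 7779 tags and replicate 2 had 5388, so that replicate 2 contributed 40.9% (40.1 to 41.8). In the rest of chromosome 6 it contributed 39.5% (39.2 to 39.8), a difference of 1.42 points (0.546 to 2.31). The share was highest in class III, at 42.7% (41.0 to 44.4), followed by class II at 41.5% (39.7 to 43.3), class I at 40.2% (39.0 to 41.5) and the stretch below class I at 38.4% (35.7 to 41.1). Class III exceeded the rest by 3.21 points (1.48 to 4.96), whereas the intervals for class I and the stretch below class I included no difference. Each library gives a single value of this share, which also varied from 38.9% to 41.6% between 23 chromosomes. The value of the MHC lay within this spread. That of class III lay above it, but it rests on 58 matched pairs, and its interval included the highest value of a chromosome. Class III was thus not separated from the spread between chromosomes.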

How the data were processed

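HA-PRCC-TFE3 ChIP was sequenced in 2 samples and input DNA in 1 sample, grouped by their titles. The study calls the ChIPs biological replicates, and intervals describe these samples only. The authors called peaks for each sample separately. The study's methods name MACS, run in Strand NGS against input DNA, and the aligner and the handling of duplicates are not given in the sources used here. The deposited narrowPeak lists give a fold enrichment ratio, −log10 p and −log10 q values and a score derived from −log10 q. The deposited BED lists follow the column order of a HOMER table, which neither the labels nor the methods name. Their header names were displaced, so columns were read by position. In these lists the authors counted ChIP tags per peak (a count, column 8), scaled them to a signal in tags per 10000000 library tags, and scaled input tags to the ChIP depth as a second signal. They also gave a score, fold ratios over input and local background with a p-value each, and a focus fraction. The authors' score, p-value and focus fraction columns of the BED lists were not used.

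Library totals were recovered as tags over signal, and input tags per peak from tags and fold over input. Of these, 100.0% were within 0.1 tag of a whole number. The last peak of chromosome 6 ended 239743 bp beyond its end in hg38, the build of the reference at hand, so no gene, motif or sequence was read by position and no coordinate was converted. The narrowPeak lists were the main lists, and overlap meant at least 1 bp. Intervals are 95% and exact Poisson, exact conditional binomial (ratios), Wilson (shares) or Newcombe (differences), and cover counting error only. PCR copies are not independent molecules. Functions were tested on simulated data. Python 3.11.15, numpy 2.4.6, pandas 2.3.3, scipy 1.17.1 and matplotlib 3.10.9 were used.

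In matched BED peaks with at least 50 tags, the ChIP replicates differed by less than counting noise (chi-square per degree of freedom 0.942 over all chromosomes). Their split between 23 chromosomes differed by far more (8.21). They were kept as 2 samples as labelled, although their independence could not be checked further.

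In each stretch the text names the 3 strongest shared regions, by the lower of their fold enrichments, among those that overlap no input peak, the widest shared region, the longest peak-free stretch and the fullest 100 kb window, and it would name any input peak. The region, stretches and rules were chosen with earlier results of these data known. Alternatives were the BED lists, q below 1e-05, other overlaps, the flanks as comparison, equal numbers of peaks, weighting by fold or tags, and leaving out a replicate.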

Additional observations from a re-analysis of the deposited data

How the results depend on the processing

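Of 40 alternatives, 29 moved their result by less than its error (counts by less than 1.5 times), 10 moved it by more and 1 reversed it. For the ratios of density, tags, fold enrichment and input tags, the error was the standard deviation between the replicates. Leaving out a replicate could not move these ratios beyond it. Those alternatives count among the 29 but say nothing about robustness. The density ratio, a mean of 2.72 over both replicates, ranged from 2.53 to 2.91 when a replicate was left out. It was 2.63 to 2.90 with the BED lists, with shared regions only and without the longest peak-free gap, and 2.87 with q below 1e-05. Against both flanks it fell to 1.296. The gain in recovery of replicate 1 peaks was 5.90 points with the rest weighted by fold decile, 7.48 to 10.6 under 5 other alternatives and 3.80 points against the flanks. That of replicate 2 peaks, 0.904 points, ran from -1.67 to 1.80. The ratio of tags per peak, 1.17 (1.15 to 1.18 without a replicate), was 1.19 for BED peaks overlapping a narrowPeak peak, 1.12 for matched BED peaks and 1.09 against the flanks. It turned to 0.909 for the fold over the local background. The ratio of fold enrichment, 1.12 (1.09 to 1.14 without a replicate), was 1.18 on −log10 p, 1.07 with q below 1e-05 and 1.07 against the flanks. The ratio of input tags, 1.08 (1.07 to 1.09 without a replicate), was 1.17 with tag deciles weighted equally and 1.005 against the flanks. The causes of these shifts were not tested. Shared regions numbered 272 in the BED lists, 322 with a reciprocal overlap of 50% and 294 with q below 1e-05, compared with 350. The alternatives with shared regions only, with the fold over the local background, and against the flanks for recovery and fold enrichment were chosen after seeing the data. Recovery, shared regions and shares of tags need both replicates, so none could be left out. No paired analysis was possible because input DNA carries no replicate number and the ChIP samples form 1 group. Genes and motifs were not analysed here. The median BED peak of the region held 20 tags in replicate 1 and 15 in replicate 2, which limits the precision of single peaks.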

Other observations

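Over all chromosomes, 598 windows of the length of the extended MHC region were counted. Of these, 9 held more narrowPeak peaks than the MHC in replicate 1 and 7 in replicate 2. In the BED lists 8 windows held more in replicate 1 and 9 in replicate 2. The median window held 163 narrowPeak peaks in replicate 1 and 117 in replicate 2, compared with 481 and 403 in the MHC. The MHC was thus in the upper end of the genome by density but held the first place on chromosome 6 alone.

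The share of narrowPeak peaks that also held a BED peak of the same sample was 74.4% (95% Wilson interval 70.3 to 78.1) in the MHC and 76.6% in the rest of chromosome 6 in replicate 1. In replicate 2 the shares were 73.0% (68.4 to 77.1) and 75.2%. The intervals of the MHC included the values of the rest in both replicates.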
